A study of Sus scrofa with 9 samples.

Results

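The DNAJ cochaperones were examined as a family in the apex of 9 pig hearts, leaving out DNAJB1, which is given once for comparison. Members were the genes whose symbol in the deposited table is DNAJA, DNAJB or DNAJC followed by a number. This rule uses no measured value, although the members were chosen, and DNAJB1 left out, with earlier results of these data known. It found 32 genes among the 25149 listed. A level of 1 TPM or more in 3 or more hearts was reached by 25 of them, which are reported, and by 11782 genes of the whole table. TPM (transcripts per 1000000) are read counts divided by gene length and scaled to a common total, so that levels of different genes can be set side by side.

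DNAJ proteins carry a J domain, which binds an HSP70 chaperone and drives it to hydrolyse ATP and so to grip its client protein. Class A and class B members work mostly with the HSP70 proteins of the cytosol, whereas class C members share only the J domain and are spread over mitochondria, endoplasmic reticulum (ER), vesicles and nucleus. The heart depends on several of them: loss of the mitochondrial import subunit DNAJC19 causes a dilated cardiomyopathy in humans, and the cytosolic members help to fold and clear the proteins of the sarcomere.

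All hearts came from female American Yorkshire pigs of 4 to 6 months in a model of donation after circulatory death (DCD), in which each donor passed through circulatory arrest and a period of warm ischemia. In Group 1 (NRP + HOPE 24 h, pigs 27, 28 and 30), circulation was restored in the body by normothermic regional perfusion (NRP) and the heart was then kept for 24 h on hypothermic oxygenated perfusion (HOPE). In Group 2 (NRP + SCS 2 h, pigs 24, 25 and 29), NRP was followed by 2 h of static cold storage (SCS), and in Group 3 (No NRP + HOPE 2 h, pigs 31, 33 and 34) the heart was taken out without NRP and kept on HOPE for 2 h. Every heart was then reperfused with blood for 2 h on a bench-top circuit (normothermic machine perfusion, NMP) before the biopsy, which means that no heart shows the level before reperfusion. Method and time of storage differ together between Groups 1 and 2, NRP and storage method between Groups 3 and 2, and NRP and storage time between Groups 3 and 1, and these cannot be told apart.

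The labels name cardiomyocytes as the cell type, although the tissue is whole myocardium. Of 11 cardiomyocyte markers, 8 were listed by symbol, and their summed level ran from 23393 to 44779 TPM with overlap of all groups. The 4 listed fibroblast markers summed to 390 to 507 TPM in Group 2, 423 to 560 TPM in Group 1 and 526 to 655 TPM in Group 3. The 5 listed smooth muscle and pericyte markers summed to 312 to 461 TPM, 225 to 412 TPM and 432 to 489 TPM in the same order. The 2 listed erythroid markers, HBB and ALAS2, summed to 71.4 to 133 TPM, 73.9 to 425 TPM and 222 to 372 TPM. The 3 listed neutrophil markers summed to 2.02 to 13.2 TPM, 0.36 to 3.89 TPM and 0 to 0.34 TPM, with CSF3R listed at 0 throughout. Lymphocyte and adipocyte markers reached at most 13.4 and 0.21 TPM in any heart, and MYH11 of smooth muscle was listed at 0 in every heart although TAGLN was present. The 5 listed endothelial markers summed to 215 TPM in pig 27 and 218 TPM in pig 31, against 312 to 509 TPM in the other hearts, and the 4 listed macrophage markers to 66.3 to 175 TPM in Group 2, 54.9 to 129 TPM in Group 1 and 96.4 to 208 TPM in Group 3. Pigs 27 and 31 also held the lowest value for 29.1% and 24.8% of the genes tested, and pig 30 the highest value for 33.8%. In a bulk biopsy, fewer cells of a type and less RNA per cell cannot be told apart.

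DNAJA1 was the most abundant member in every heart, and together with DNAJB4, DNAJA2, DNAJC19 and DNAJB5 it made up 59.4% of the summed mean TPM of the 25 members. The 5 cytosolic cochaperones (DNAJA1, DNAJA2, DNAJB2, DNAJB4 and DNAJB5) summed to a mean of 368 TPM, the 7 members assigned to the ER to 112 TPM, the 4 assigned to mitochondria to 94.98 TPM and the 4 members tied to the nucleus, RNA or the ribosome to 82.5 TPM. DNAJC13 of vesicles and endosomes had a mean of 11.3 TPM. The other 4 (DNAJC16, DNAJC18, DNAJC25 and DNAJC27) were given no place, so these sums may leave out members, and they summed to 18.1 TPM. The order below the top was not fixed: of the 24 neighbouring pairs in the ranking by mean, 22 changed order in at least 1 heart. Only DNAJA1 over DNAJB4 and DNAJC18 over DNAJC24 kept their order in all 9.

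**Figure D1:**
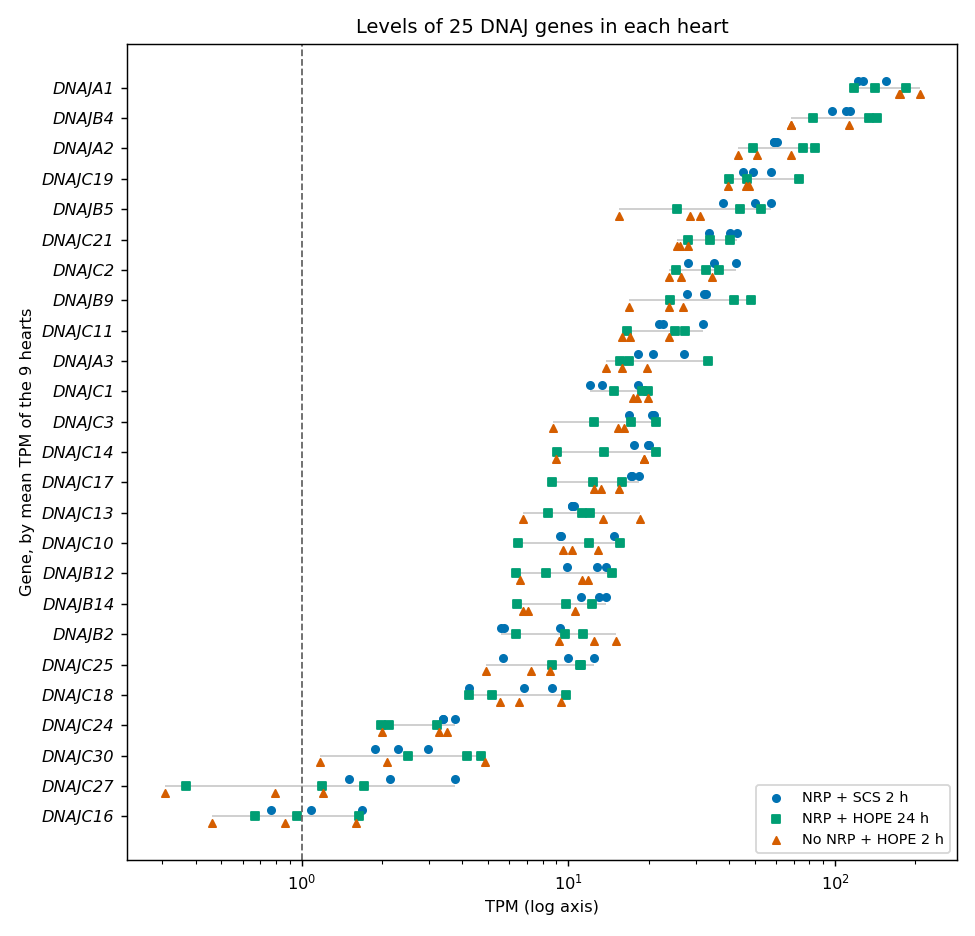
TPM of the 25 DNAJ genes on a log axis, 1 point per heart, with blue circles for Group 2, green squares for Group 1 and orange triangles for Group 3; the grey line spans the lowest to the highest heart and the dashed line marks 1 TPM. DNAJA1 lies at the top in every heart (117 to 208 TPM), and the lowest 2 members, DNAJC27 and DNAJC16, fall on both sides of 1 TPM.

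DNAJA1, a farnesylated class A cochaperone of cytosolic HSP70, measured 127, 122 and 156 TPM in Group 2 (pigs 24, 25 and 29), 117, 185 and 141 TPM in Group 1 (pigs 27, 28 and 30) and 173, 175 and 208 TPM in Group 3 (pigs 31, 33 and 34). All 3 hearts without NRP lay above the Group 2 hearts, and pig 28 of Group 1 lay among them. DNAJB4, a class B cochaperone and close relative of DNAJB1, measured 97.3, 110 and 113 TPM in Group 2, 82.9, 144 and 134 TPM in Group 1 and 68.1, 68.2 and 113 TPM in Group 3. Pigs 31 and 33 gave its lowest levels, but pig 34 was as high as the Group 2 hearts.

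DNAJA2, a second class A cochaperone, was nearly constant in Group 2 at 59.2, 59.2 and 60.7 TPM, and varied from 49.3 to 84.2 TPM in Group 1 and from 43.2 to 68.5 TPM in Group 3, on both sides of the Group 2 values. DNAJC19, the import motor subunit of the inner mitochondrial membrane, measured 45.04, 57.3 and 49.1 TPM in Group 2, 46.8, 40.1 and 73.0 TPM in Group 1 and 47.6, 39.7 and 46.2 TPM in Group 3. Its groups overlapped in every comparison. DNAJB5, another class B relative of DNAJB1, measured 49.9, 57.2 and 37.8 TPM in Group 2, 25.6, 43.9 and 52.7 TPM in Group 1 and 15.5, 28.6 and 31.2 TPM in Group 3. The 3 hearts without NRP were all below Group 2, whereas Group 1 reached from below pig 33 to the upper values of Group 2.

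The remaining members had lower means, from 33.2 TPM for DNAJC21, a factor of ribosome biogenesis, and 31.7 TPM for DNAJC2, which acts at the ribosome, down to 1.44 TPM for DNAJC27, a Rab-like small GTPase with a J domain, and 1.08 TPM for DNAJC16. In the ER the highest was DNAJB9 (mean 30.5 TPM), a lumenal partner of the HSP70 protein HSPA5 that is induced by unfolded proteins. In mitochondria, DNAJC19 was followed by DNAJC11 (22.5 TPM), which belongs to the complex that shapes the cristae, and DNAJA3 (20.1 TPM), the matrix partner of HSPA9. The highest heart exceeded the lowest by 1.65-fold for DNAJC1 and by up to 4.15-fold for DNAJC30, an inner membrane protein needed for upkeep of complex I, with DNAJC27 outside this range at 12.2-fold.

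DNAJC16 stood just inside the filter, at 0.46 to 1.68 TPM with 4 hearts at 1 TPM or more, and DNAJB13, which belongs to cilia and sperm flagella, just outside it at 0 to 0.82 TPM. The other members below the filter were DNAJC6 (auxilin, which uncoats clathrin vesicles in neurons) at up to 0.57 TPM, DNAJC28 at up to 0.49 TPM and DNAJC22 at up to 0.19 TPM. DNAJB8, DNAJC9 and DNAJC5B were listed at 0 in all 9 hearts.

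The family total differed little between the groups. The summed TPM of the 25 members was 702 ± 21.9 in Group 2, 718 ± 165 in Group 1 and 642 ± 84.5 in Group 3 (mean ± SD, n = 3 each). Pig 27 had the lowest total at 530 TPM and pig 30 the highest at 842 TPM, both of Group 1, so the widest spread lay within that group. Pig 31 held the lowest value of 11 of the 25 members and pig 30 the highest value of 10. The 13 mitochondrially encoded genes took 55.3% of all TPM in pig 27, 54.95% in pig 31 and 38.2% in pig 30, but also 54.7% in pig 28, which had the second highest family total at 781 TPM, and their part in these totals was not tested. When those genes were left out and the rest rescaled to 1000000, the totals were 1415 ± 108, 1425 ± 273 and 1271 ± 40.7 TPM for Groups 2, 1 and 3, and Group 3 lay below Group 2 without overlap.

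**Figure D2:**
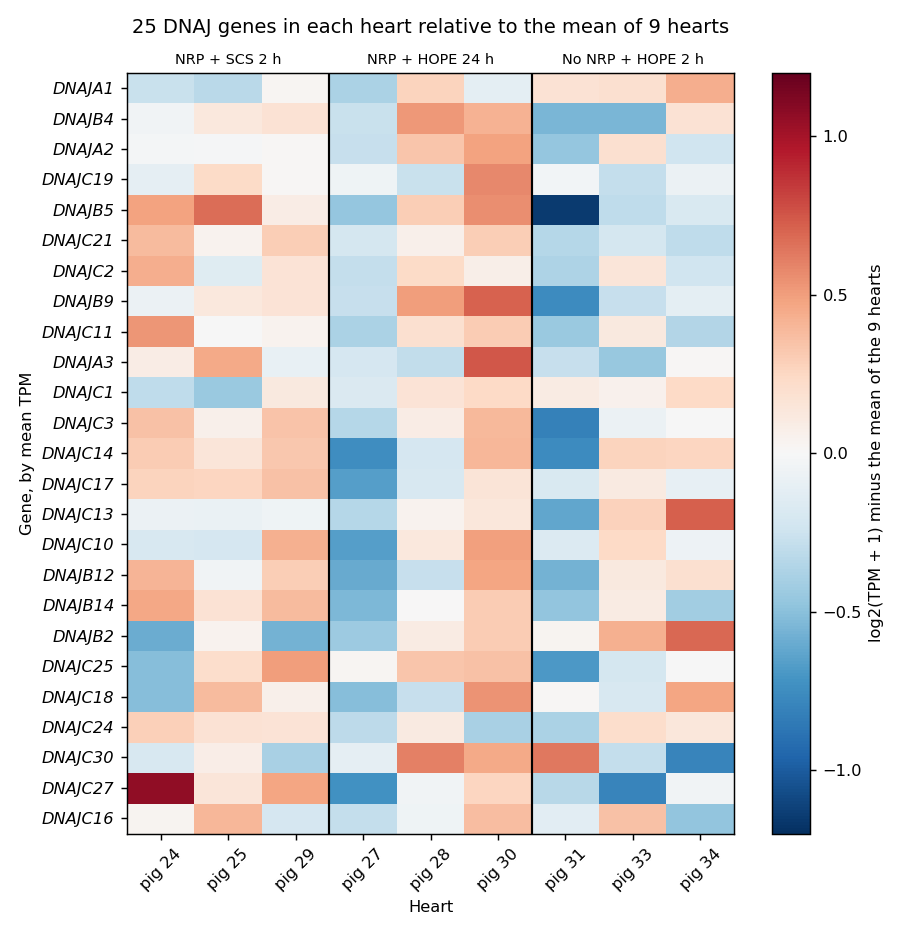
log2(TPM + 1) of the 25 DNAJ genes in each heart minus the mean of the 9 hearts, red above and blue below that mean, with hearts ordered by group and genes by mean TPM. Pigs 27 and 31 are blue for most genes and pig 30 is red for most, while DNAJA1 and DNAJC30 are among the few genes above the mean in pig 31.

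DNAJB1, the stress-induced class B cochaperone left out of the family here, was at 38.0, 42.5 and 43.5 TPM in Group 2, at 45.5, 38.4 and 43.8 TPM in Group 1 and at 310, 123 and 189 TPM in Group 3. Its difference between Groups 3 and 2 was 2.20 on the log2(TPM + 1) scale (SE 0.32, adjusted p = 0.0228), and between Groups 3 and 1 it was 2.16 (SE 0.32, adjusted p = 0.0222). As a share of its own TPM and that of the 25 members together, DNAJB1 took 4.7% to 7.9% in the 6 hearts with NRP and 15.8% to 36.0% in the 3 hearts without. The comparisons below ask whether the other members differed between the same groups.

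No member of the family passed the test between hearts without NRP and hearts with NRP and brief SCS (Group 3 over Group 2). The call required a Benjamini-Hochberg adjusted p under 0.05 and a change of more than 1 on the log2 scale, and was met by 0 of 25 members and by 0.0509% of all genes tested. Fitted differences, all on the log2(TPM + 1) scale, ran from -0.96 for DNAJB5 to 0.76 for DNAJB2, with 19 of 25 below 0. Their median was -0.31, beside -0.07 for all genes, of which 42.2% were above 0. Without pig 31 it was -0.20 beside 0.06, and with less weight on noisier hearts it was -0.14 beside -0.02. The 95% confidence interval lay within 1 log2 unit either way for 11 of the 25, so for the other 14 a change of that size was not excluded by these hearts.

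At an unadjusted p under 0.05, 1 member was higher, beside 2.57% of all genes, and 2 were lower, beside 4.65% of all genes. DNAJB5 was the lowest, with a difference of -0.96 (SE 0.35, adjusted p = 0.565, 95% confidence interval -1.71 to -0.21). DNAJC27 followed at -0.95 (SE 0.38, adjusted p = 0.621). It measured 3.75, 1.502 and 2.15 TPM in Group 2 and 0.79, 0.31 and 1.203 TPM in Group 3, near the filter, and its estimate was -1.62 with a pseudocount of 0.1. DNAJB2, a class B cochaperone with ubiquitin-interacting motifs that hands clients to the proteasome, was the one higher, at 0.76 (SE 0.33, adjusted p = 0.664). Its levels were 5.58, 9.29 and 5.75 TPM in Group 2 and 9.18, 12.4 and 15.1 TPM in Group 3, where pig 31 lay just under pig 25.

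DNAJC21 measured 42.9, 33.5 and 40.3 TPM in Group 2 and 25.5, 28.1 and 26.2 TPM in Group 3, a difference of -0.53 (SE 0.26, adjusted p = 0.725). The values of Group 3 were all lower and close together. DNAJB14, an ER membrane cochaperone that faces the cytosol, measured 13.8, 11.1 and 13.0 TPM against 6.75, 10.5 and 7.05 TPM, a difference of -0.60 (SE 0.31, adjusted p = 0.739), which was -0.37 when noisier hearts were given less weight. DNAJA1 was higher by 0.46 (SE 0.25, adjusted p = 0.756).

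Counted by overlap, 1 member (DNAJA1) lay higher in every Group 3 heart than in every Group 2 heart, beside 4.44% of all genes, and 7 lay lower, beside 10.3% of all genes. The 7 were DNAJB5, DNAJC27, DNAJC21, DNAJB14, DNAJC3, DNAJB9 and DNAJC17, or 28.0% of the 25. They come from several places in the cell: DNAJB9, DNAJB14 and DNAJC3 belong to the ER, DNAJC3 being a lumenal partner of HSPA5 that also restrains the kinase EIF2AK3, while DNAJC17 is tied to splicing and DNAJC21 to the ribosome. DNAJB9 measured 27.9, 32.1 and 32.9 TPM against 16.9, 23.9 and 26.9 TPM, DNAJC3 20.9, 16.9 and 20.7 TPM against 8.78, 15.3 and 16.1 TPM, and DNAJC17 17.3, 17.2 and 18.4 TPM against 12.5, 15.4 and 13.3 TPM. Leaving out pig 31 kept the count at 7, beside 11.1% of all genes, with the same members. Leaving out any other heart of the 2 groups raised it, from 8 without pig 29, beside 16.5%, to 11 without pig 33, beside 19.0%. After median-of-ratios scaling, which lines up the hearts on their typical gene, 6 members remained (all but DNAJC21), beside 9.92% of all genes, and without the mitochondrially encoded genes there were 8, beside 13.0%. The summed fibroblast markers (gene by gene only DCN), both erythroid markers and ACTA2 of smooth muscle were higher, and the low summed neutrophil markers lower, in Group 3 than in Group 2 without overlap, and their part in these differences was not tested.

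**Figure D3:**
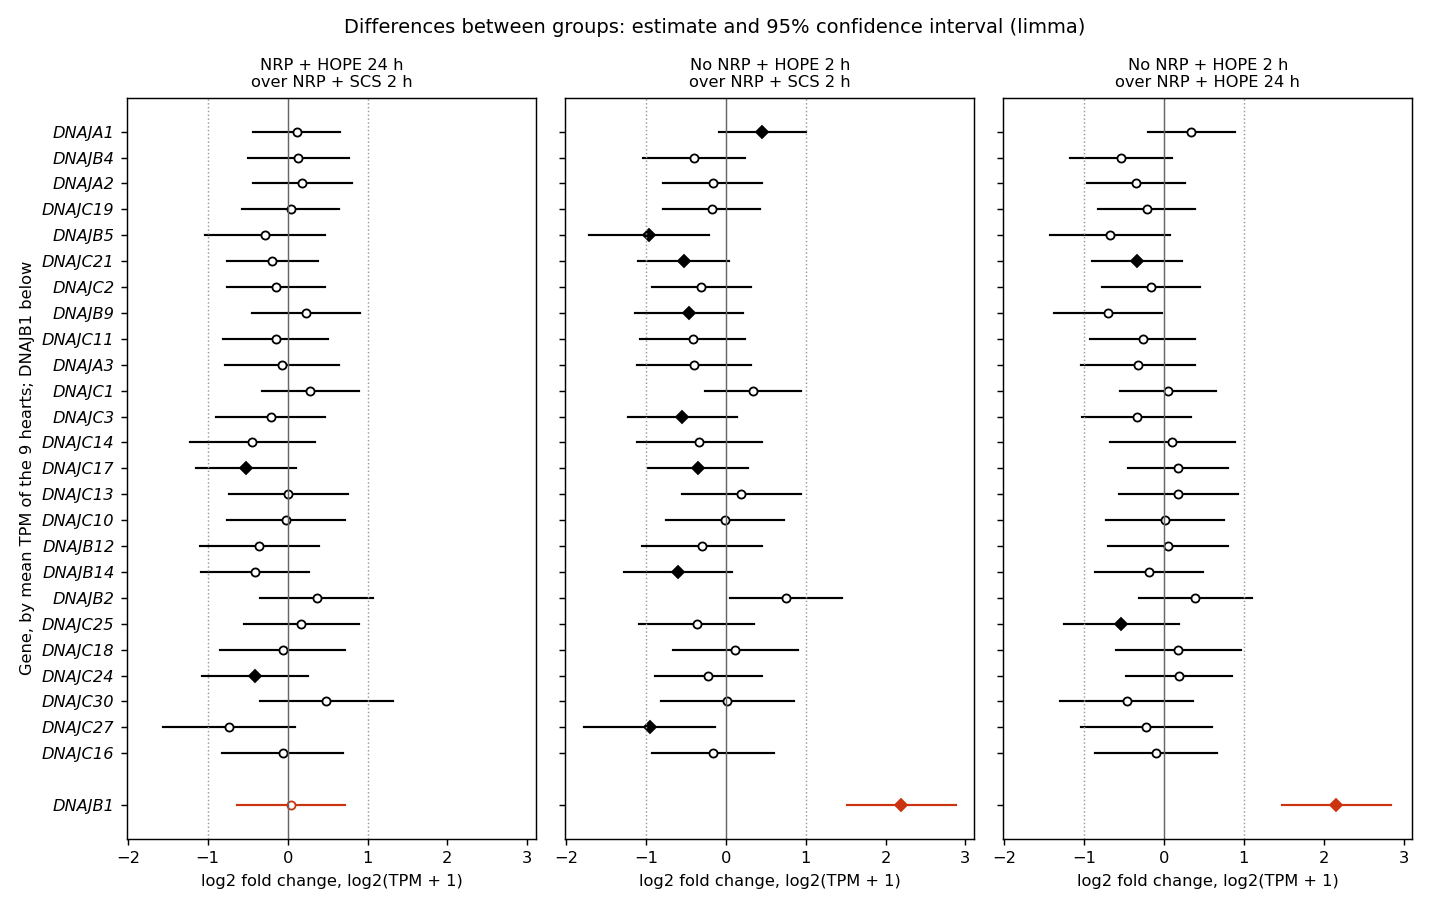
Difference of the 25 DNAJ genes and of DNAJB1 (red, below) on the log2(TPM + 1) scale in the 3 comparisons, as the limma estimate with its 95% confidence interval; filled diamonds mark genes whose groups do not overlap, and dotted lines mark a change of 1 either way. No estimate of the 25 passes a dotted line, whereas DNAJB1 lies at 2.20 and 2.16 where Group 3 is compared.

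Among the 5 cytosolic members, none of which passed the test, the estimates for Group 3 over Group 2 were 0.46 for DNAJA1 and 0.76 for DNAJB2, and -0.16, -0.40 and -0.96 for DNAJA2, DNAJB4 and DNAJB5. Ratios of members within a heart do not depend on how the hearts are scaled, and the following were chosen after the values were seen. The ratio of DNAJA1 to DNAJB4 was 2.32 ± 0.41 in Group 3, 1.26 ± 0.14 in Group 2 and 1.25 ± 0.19 in Group 1 (mean ratio ± SD, n = 3 each). Group 3 did not overlap with Group 2 or with Group 1 (exact permutation p = 0.1 each, two-sided, the smallest that 3 against 3 hearts can give). DNAJB5 stood to DNAJA1 as 0.134 ± 0.039 in Group 3, 0.369 ± 0.116 in Group 2 and 0.277 ± 0.086 in Group 1, without overlap of Group 3 with the others; against Group 2 this follows from the levels of both genes, which did not overlap themselves. The ratio of DNAJA1 to DNAJA2 was 3.55 in Group 3, 2.26 in Group 2 and 2.166 in Group 1 and overlapped between Groups 3 and 2 (exact permutation p = 0.2) but not between Groups 3 and 1 (p = 0.1). DNAJB5 over DNAJB4 was 0.308, 0.456 and 0.335 in the same groups and overlapped (exact permutation p = 0.2 for Group 3 against Group 2 and 0.6 against Group 1).

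**Figure D4:**
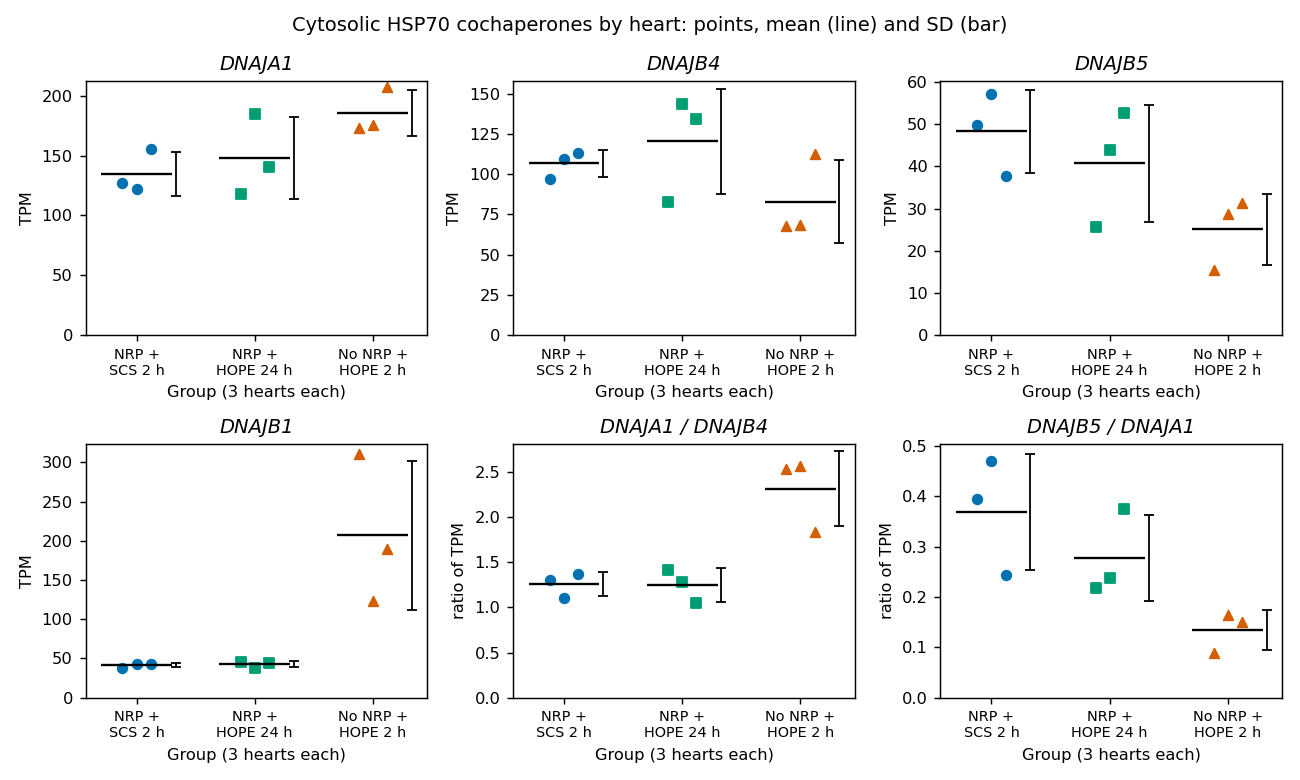
TPM of DNAJA1, DNAJB4, DNAJB5 and DNAJB1 and the ratios DNAJA1 / DNAJB4 and DNAJB5 / DNAJA1 in each heart, by group, with the group mean as a line and the SD as a bar (n = 3). In Group 3 DNAJB1 reaches 123 to 310 TPM, the DNAJA1 / DNAJB4 ratio is 1.84 to 2.57 and the DNAJB5 / DNAJA1 ratio is 0.089 to 0.163, all outside the range of the 6 hearts with NRP.

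After 24 h of HOPE, compared with 2 h of SCS (Group 1 over Group 2, both with NRP), no member passed the test either, with 0 of 25 called beside 0.0255% of all genes. At an unadjusted p under 0.05, 0 members were higher, beside 1.82% of all genes, and 0 lower, beside 3.14%. Estimates ran from -0.74 to 0.48 with a median of -0.06, beside -0.12 for all genes. Of the 25, 15 were below 0 and 10 above, while 35.9% of all genes were above 0. Median-of-ratios scaling moved the median of all genes to 0.00 and that of the members to 0.06, so the typical member had no stable sign. Leaving out a heart gave a median of the members from -0.27, beside -0.32 for all genes (without pig 30), to 0.09, beside 0.04 (without pig 27). The interval lay within 1 log2 unit either way for 16 of the 25.

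The members with the smallest p in this comparison were DNAJC27, DNAJC17, DNAJB14, DNAJC24, DNAJC30 and DNAJC14 (adjusted p = 0.993 for each). DNAJC27 measured 0.37, 1.19 and 1.71 TPM in Group 1, a difference of -0.74 (SE 0.38) that was -1.22 with a pseudocount of 0.1, -0.46 without pig 27 and -0.48 without pig 24. DNAJC17 measured 8.65, 12.4 and 15.9 TPM, a difference of -0.52 (SE 0.29), or -0.31 without pig 27, and DNAJC24, which helps to make the diphthamide residue of elongation factor 2, measured 2.13, 3.20 and 1.99 TPM against 3.75, 3.40 and 3.38 TPM in Group 2. These were the 2 members that lay below Group 2 in every heart, beside 7.32% of all genes, and 0 lay above, beside 2.5%. DNAJC17 stayed without overlap after median-of-ratios scaling and without the mitochondrially encoded genes, and DNAJC24 did not. The counts moved with the scaling and with single hearts: 3 higher and 3 lower after median-of-ratios scaling, beside 7.09% and 7.55% of all genes, 7 higher without pig 27, beside 12.5%, and 7 lower without pig 30, beside 34.1%.

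DNAJC24 differed by -0.41 (SE 0.31), which became -0.23 with less weight on noisier hearts. DNAJB14 measured 6.42, 9.80 and 12.3 TPM in Group 1, a difference of -0.41 (SE 0.31), and DNAJC14, an ER membrane protein, measured 9.02, 13.6 and 21.2 TPM against 19.8, 17.6 and 20.1 TPM, a difference of -0.44 (SE 0.36). Both rested on pig 27: without it they were -0.18 and -0.16, and without pig 30 DNAJC14 was -0.73. DNAJC30 was higher by 0.48 (SE 0.39), with 2.49, 4.71 and 4.18 TPM in Group 1 and 2.29, 2.97 and 1.88 TPM in Group 2. For the 5 most abundant members the differences were 0.11 for DNAJA1, 0.13 for DNAJB4, 0.19 for DNAJA2, 0.04 for DNAJC19 and -0.28 for DNAJB5, each with an interval that spans 0.

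Between hearts without NRP and hearts with NRP and 24 h of HOPE (Group 3 over Group 1), 0 of 25 members were called, beside 0.0509% of all genes. At an unadjusted p under 0.05, 0 members were higher, beside 3.23% of all genes, and 1 was lower, beside 2.78%. Estimates ran from -0.70 to 0.39 with a median of -0.19, beside 0.03 for all genes. Of the 25, 15 were below 0 and 10 above, while 53.9% of all genes were above 0. The median of the members moved with single hearts, as did that of all genes: it was 0.01 beside 0.23 without pig 30, -0.31 beside -0.12 without pig 27, -0.08 beside 0.17 without pig 31, -0.12 beside -0.07 without pig 34 and, with less weight on noisier hearts, -0.08 beside 0.16. Group 1 and Group 2 were each compared with the same 3 hearts of Group 3, so the comparisons are not independent.

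The lower member was DNAJB9, at 24.0, 41.8 and 48.4 TPM in Group 1 and 16.9 to 26.9 TPM in Group 3, a difference of -0.70 (SE 0.31, adjusted p = 0.826). Pig 27 lay within the range of Group 3, and the other Group 1 hearts lay far above it. DNAJB5 differed by -0.68 (SE 0.35, adjusted p = 0.857), or -0.37 without pig 31, and DNAJB4 by -0.53 (SE 0.30, adjusted p = 0.879). DNAJA1 was higher by 0.34 (SE 0.25, adjusted p = 0.943), or 0.13 with less weight on noisier hearts, 0.19 without pig 27 and 0.52 without pig 28.

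By overlap, 0 members lay higher in all Group 3 hearts, beside 4.51% of all genes, and 2 lay lower, beside 2.97%. The lower count was 5 after median-of-ratios scaling, beside 8.3% of all genes, 4 without the mitochondrially encoded genes, beside 4.78%, and 8 without pig 27, beside 15.1%. The higher count was 1 after median-of-ratios scaling, beside 7.97%, 2 without pig 30, beside 21.3%, 3 without pig 31, beside 15.4%, and 1 without pig 28, beside 6.2%. The 2 were DNAJC25, at 8.66, 11.02 and 11.1 TPM in Group 1 and 4.90, 7.24 and 8.51 TPM in Group 3, and DNAJC21, at 28.1, 34.1 and 40.3 TPM in Group 1. The differences were -0.54 (SE 0.33, adjusted p = 0.929), or -0.34 without pig 31, and -0.34 (SE 0.26, adjusted p = 0.950), or -0.21 without pig 30. For DNAJC21 the highest Group 3 heart and the lowest Group 1 heart both rounded to 28.1 TPM, and its groups overlapped after median-of-ratios scaling. The summed smooth muscle and pericyte markers were higher in Group 3 than in Group 1 without overlap (gene by gene only ACTA2 separated), and the low summed neutrophil markers were lower, and their part in these differences was not tested.

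The partners of the DNAJ proteins were counted from lists written by hand. HSP70 chaperones take up clients that DNAJ proteins deliver, nucleotide exchange factors release them, and HSP90 receives many of them next. Of the genes written, 7 of 12 HSP70 chaperones, 9 of 14 exchange factors and 6 of 11 mitochondrial import genes were tested. So were 2 of 7 small heat shock proteins, 2 of 5 J-domain proteins without a DNAJ symbol and 11 of 12 genes of the HSP90 list. The rest were not found by name or identifier or fell below the filter, and the counts do not cover them. In Groups 1 over 2 and 3 over 1, no gene of the 7 lists had an unadjusted p under 0.05. Between Groups 3 and 2, 1 of 7 HSP70 chaperones was higher and 1 lower at that level, 2 of 9 exchange factors were higher, and 1 of 6 genes of the mitochondrial import motor and translocase was higher and 1 lower, none of which passed the adjusted test. Beside these, 2.57% of all genes were higher and 4.65% lower at that level, and GRPEL2 and HSPA9 are each counted in 2 of the lists. The counts were 0 of 11 for HSP90 and its cochaperones, 0 of 11 for ER folding partners, 0 of 2 for the small heat shock proteins and 0 of 2 for the J-domain proteins without a DNAJ symbol, SEC63 and GAK.

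GRPEL2, a mitochondrial exchange factor, measured 6.30, 5.81 and 9.88 TPM in Group 2 and 15.0, 11.7 and 17.5 TPM in Group 3, a difference of 0.93 (SE 0.34, adjusted p = 0.565). HSPA9, the HSP70 protein of the mitochondrial matrix and partner of DNAJA3, measured 177, 177 and 151 TPM against 103, 126 and 117 TPM, a difference of -0.54 (SE 0.24, adjusted p = 0.687). For both, the groups did not overlap. The same held for HSPH1, a cytosolic exchange factor induced by heat, at 36.7, 35.3 and 30.3 TPM against 89.7, 46.2 and 53.4 TPM (0.82, SE 0.32, adjusted p = 0.602). In all, 2 tested partners (GRPEL2 and HSPH1) lay higher and 4 (HSPA9, HSPA14, HYOU1 and HSP90AB1) lower in every Group 3 heart, beside 4.44% and 10.3% of all genes. By list, 2 of 9 exchange factors and 1 of 6 mitochondrial import genes were higher. The lower ones were 2 of 7 HSP70 chaperones, 1 of 9 exchange factors, 1 of 11 in the HSP90 list, 1 of 11 ER folding partners and 1 of 6 import genes. GRPEL2, HSPA9 and HYOU1 are each counted in 2 of these lists. HSPA2 was higher by 0.85 (SE 0.32, adjusted p = 0.583), with pig 31 at 13.5 TPM below pig 29 at 14.1 TPM. HSPA5, the ER partner of DNAJB9, DNAJC1, DNAJC3 and DNAJC10, measured 182, 191 and 162 TPM in Group 2 and 166, 251 and 178 TPM in Group 3, on both sides of each other. HSPA8, the constitutive cytosolic HSP70 protein, measured 76.3, 61.1 and 62.2 TPM in Group 2, 49.2, 88.6 and 82.9 TPM in Group 1 and 60.5, 60.4 and 80.9 TPM in Group 3, with overlap of all groups.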

How the data were processed

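RNA sequencing of apex biopsies of 9 pig hearts was analysed, 3 per group, with groups from the treatment and time given in the labels. Per the labels and the study's methods, total RNA was enriched with oligo(dT) beads and sequenced in paired ends. Reads were demultiplexed with bcl2fastq 2.17, trimmed with Trimmomatic 0.36, mapped with STAR 2.5.2b and counted with featureCounts of Subread 1.5.2, and the authors used DESeq2 on counts. The authors deposited TPM values, 1 table of 25149 genes in which each heart sums to 1000000. The genome build and the gene lengths behind TPM are not given in the sources used here. A further 9 columns of values matched no labelled sample and were not used. TPM keep no read depth. Depth is therefore unknown here, and no interval or floor for counting error was computed. The precision shown is the spread over 3 hearts. ERCC spike-in was added according to the labels, but the table lists 0 such rows.

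The 11782 genes at 1 TPM or more in 3 or more hearts were tested on log2(TPM + 1) with limma 3.58.1 in R 4.3.3, since TPM are not counts. All 9 hearts entered 1 fit with a mean per group, moderated variances with a trend, two-sided tests and Benjamini-Hochberg adjustment over all genes tested. The pseudocount of 1 makes fold changes of low genes too small. The call required both an adjusted p under 0.05 and a log2 fold change beyond 1 either way, and all adjusted p values are from limma. Ratios within a heart were tested with exact permutation tests. The fit was checked on simulated data.

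The members and the lists of partners and markers were chosen with earlier results of these data known. Named with a fold change were, in each comparison, the 6 members with the smallest p, and, from each list of partners, up to 3 genes with the smallest p; HSPA5 and HSPA8 were added as partners after their values were seen, and estimates are also printed for the 5 cytosolic members in Group 3 over Group 2 and the 5 most abundant members in Group 1 over Group 2. The 5 members with the highest mean are given by heart, and so are some non-overlapping members, also chosen after their values were seen. Alternatives were a pseudocount of 0.1, no filter, a mean of at least 5 TPM, median-of-ratios scaling, leaving out mitochondrially encoded genes, no variance trend, heart weights, only the hearts compared, and each heart left out. No pig is in more than 1 group.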

Additional observations from a re-analysis of the deposited data

How the results depend on the processing

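In all 17 alternatives, no DNAJ member was called in any of the 3 comparisons (0 in each, and 0 to 0 over the fits with a heart left out). Few genes of the whole table were called either: of 11782 tested, 3 in Group 1 over Group 2 and 6 in Group 3 over Group 2. With heart weights these became 60 and 94. None of the 6 members with the smallest p in each comparison changed direction where it was tested. Alternatives were not tabulated for the other printed estimates. Requiring a mean of at least 5 TPM left 21 of the 25 members. The number with an unadjusted p under 0.05 depended on the setting. For Group 3 over Group 2 it was 3, and became 6 after median-of-ratios scaling, 6 without the mitochondrially encoded genes, 7 with heart weights and 6 with only the 6 hearts compared; leaving out a heart gave 1 (without pig 24, beside 4.12% of all genes) to 5 (without pig 30, beside 9.46%). The share of all genes moved too, from 7.22% to 12.4%, 11.1%, 15.8% and 9.18% in the order of the other settings. For Group 1 over Group 2 it was 0, beside 4.97% of all genes. It became 1 after median-of-ratios scaling, 1 without the mitochondrially encoded genes and 1 with heart weights, beside 8.59%, 8.16% and 15.4%. When a heart was left out it was 2 without pig 30, beside 10.8%, and 1 without pig 25, beside 4.49%. Without any other heart it was 0, beside 3.18% (pig 28) to 5.53% (pig 27). For Group 3 over Group 1 it was 1, beside 6.01% of all genes. It became 3 after median-of-ratios scaling, 3 without the mitochondrially encoded genes and 3 with heart weights, beside 11.7%, 9.12% and 15.9%. Without the variance trend and with only the 6 hearts compared it was 0 each, beside 6.03% and 5.05%. Leaving out a heart gave 0 without pig 24, 25, 28, 29, 30 or 33, beside 4.09% (pig 28) to 9.59% (pig 30). The highest count was 3, without pig 27, beside 8.38%, or pig 34, beside 4.89%. The number of members that lay lower in every Group 3 heart than in every Group 2 heart was 7 to 11 when a heart was left out (11 without pig 33, beside 19.0% of all genes, which ran from 11.1% to 22.2% over these fits). The number that lay higher was 2 after median-of-ratios scaling, 2 without the mitochondrially encoded genes, beside 8.03% and 4.91% of all genes, and 1 to 3 with a heart left out (2 without pig 25, beside 7.6%, 3 without pig 29, beside 8.95%, and 3 without pig 31, beside 16.5%). The alternatives for overlap were chosen after seeing the data. The cause of these shifts was not tested. A pig left out leaves 2 hearts in its group, and fewer hearts separate more easily by chance. The median half-width of the 95% confidence intervals of the members was 0.68 on the log2 scale, which bounds what 3 hearts per group can show. The unknown read depth is a further limit, also for the lowest members, DNAJC27 and DNAJC16, and its size was not computed.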

Other observations

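The deposited table lists 12006 of its genes without a symbol, and 3 further DNAJ genes were found among them by identifier through a table that pairs pig gene identifiers with symbols. They lie outside the rule that defined the family and were not counted in it. DNAJC7, a cochaperone with tetratricopeptide repeats that binds both HSP70 and HSP90, measured 35.1, 32.7 and 36.7 TPM in Group 2, 18.7, 27.7 and 34.8 TPM in Group 1 and 23.2, 33.7 and 35.7 TPM in Group 3. Its mean of 30.9 TPM over the 9 hearts places it beside DNAJB9 and DNAJC2. DNAJB11, an abundant lumenal partner of HSPA5 in the ER, ranged from 15.8 to 32.2 TPM (mean 24.0 TPM), and DNAJC4 from 11.9 to 20.3 TPM (mean 16.6 TPM). In Group 3 over Group 2 the differences on the log2(TPM + 1) scale were -0.19 for DNAJC7 (SE 0.30), 0.13 for DNAJB11 (SE 0.31) and 0.31 for DNAJC4 (SE 0.29). In Group 1 over Group 2 they were -0.39, 0.03 and 0.05, and in Group 3 over Group 1 they were 0.20, 0.09 and 0.26. None of the 3 had an unadjusted p under 0.05 in any comparison with limma.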
